A study of Mus musculus with 4 samples.

Results

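Transcript levels of 39 genes of DNA replication and S phase were followed in mouse embryonic fibroblasts with and without podoplanin. The genes were chosen by name for their part in copying DNA, with earlier results of these data known. Each of the 39 was read by a probe set that carries a single gene symbol, among 19751 genes on the array. Where a symbol had several probe sets the brightest was used, which concerned Pcna and Tk1. The arrays fell into a pair of groups. Pdpn KO fibroblasts came from embryos labelled Pdpn-/- (2 arrays) and WT fibroblasts from wild-type embryos (2 arrays), all of the strain written C57BL6/J. The cells of both groups were taken from embryos of embryonic day 9.5 to 13.5, kept for 7 to 10 days in medium with 10% fetal calf serum, and cleared of CD31-positive and CD45-positive cells by magnetic selection. The labels call the arrays biological replicates, but the sources used here give neither the number of embryos behind a culture nor its exact stage. The p-values then measure only how far these arrays scatter. Between the WT arrays that scatter may be technical, while the Pdpn KO arrays also differed in the sex of the cells, as given below.

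Copying of the genome begins with licensing, in which the origin recognition complex, Cdc6 and Cdt1 load rings of the MCM2 to MCM7 helicase onto DNA in G1. At the start of S phase the kinase Cdc7 and cyclin E with its CDK partner turn these rings into active helicases by recruiting Cdc45 and the GINS complex, after which polymerases, the sliding clamp PCNA, its loader and the ligase complete the new strands. Most of these genes are transcribed under the E2F factors late in G1, and their summed level in a culture of dividing fibroblasts is commonly read as a sign of how many cells are cycling.

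Pdpn transcript was far lower in the knockout arrays, as the labels require. Its RMA intensity, a background-corrected and normalised brightness per probe set on a linear scale, was 179 and 201 in Pdpn KO replicates 1 and 2, against 4486 and 3106 in WT replicates 1 and 2 (log2 difference -4.30 ± 0.19, SE, limma adjusted p = 0.00501). The labels give every sample as female, and 3 arrays went against that. Xist, the RNA of the inactive X chromosome, read 48.9 and 1831 in Pdpn KO replicates 1 and 2, against 48.6 and 57.4 in WT replicates 1 and 2, and the Y-linked Eif2s3y read 1673 and 35.1 against 1534 and 1474. The Y-linked Kdm5d (569 and 98.2 in Pdpn KO, 597 and 506 in WT) and Uty (799 and 36 in Pdpn KO, 760 and 758 in WT) had the same pattern. Pdpn KO replicate 2 thus carried the pattern of female cells, and Pdpn KO replicate 1 and both WT arrays that of male cells. Any difference between the Pdpn KO arrays therefore cannot be told apart from the sex of the culture. All 14 fibroblast markers were measured, with a median at percentile 94 of the mean levels of all genes, while 11 endothelial and 10 blood cell markers had medians at percentiles 37.3 and 29.4. Their defining genes cannot be called absent, because RMA values carry no detection call. Summed endothelial marker intensity was 2301 and 2375 in Pdpn KO and 2620 and 2488 in WT, and that of blood cell markers 1744 and 1533 in Pdpn KO and 1662 and 1496 in WT. Neural marker sums were higher in both Pdpn KO arrays, at 3790 and 3888 in Pdpn KO and 2904 and 2843 in WT. So were epithelial marker sums, at 3435 and 3205 in Pdpn KO and 3039 and 2798 in WT. Muscle marker sums were lower, at 8018 and 6910 in Pdpn KO and 10485 and 8138 in WT. The median log2 difference, Pdpn KO minus WT, was 0.00 over the neural, -0.08 over the epithelial and -0.07 over the muscle markers. The median neural or epithelial marker thus did not share the higher sums. In limma 0 of the 7 neural, 0 of the 9 epithelial and 0 of the 8 muscle markers passed the threshold. The part of other cell types in the results was not tested. Fibroblast markers summed to 67166 and 72408 in Pdpn KO and 64985 and 73134 in WT, higher in replicate 2 of both genotypes.

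No replication gene differed between the genotypes past the threshold. In limma over all 19751 genes, 0 of the 39 had an adjusted p under 0.05 (0.0101% of all genes passed), and 1, Rfc2, had an unadjusted p under 0.05, higher (1.5% of all genes), with 0 lower (0.511%). Fold changes were small: the log2 difference, Pdpn KO minus WT, lay between -0.05 and 0.32, with a median of 0.08, beside a median of 0.00 over all genes and 0.03 over the brighter 50%. It was above 0 for 35 of the 39, against 51.7% of all genes and 61.9% of the brighter 50%, and for 29 once each array was centred on its median and 28 after quantile normalization. The genotypes did not overlap for 9 members, with Pdpn KO higher, which is 23.1% of the 39 (14.6% of all genes and 21.8% of the brighter 50%), and for 0 with Pdpn KO lower (9.74% and 6.67%). The 9 were Mcm8, Gins2, Gins3, Gins4, Prim1, Rfc2, Rfc3, Rfc4 and E2f1. In bulk RNA, a change in the share of cells in S phase and a change in RNA per cell cannot be told apart. Without Pdpn KO replicate 2, the array with the female pattern, the median was -0.04 and 16 of 39 differences were above 0. With Pdpn KO replicate 1 left out instead, it was 0.22 and 38 were above 0.

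**Figure D1:**
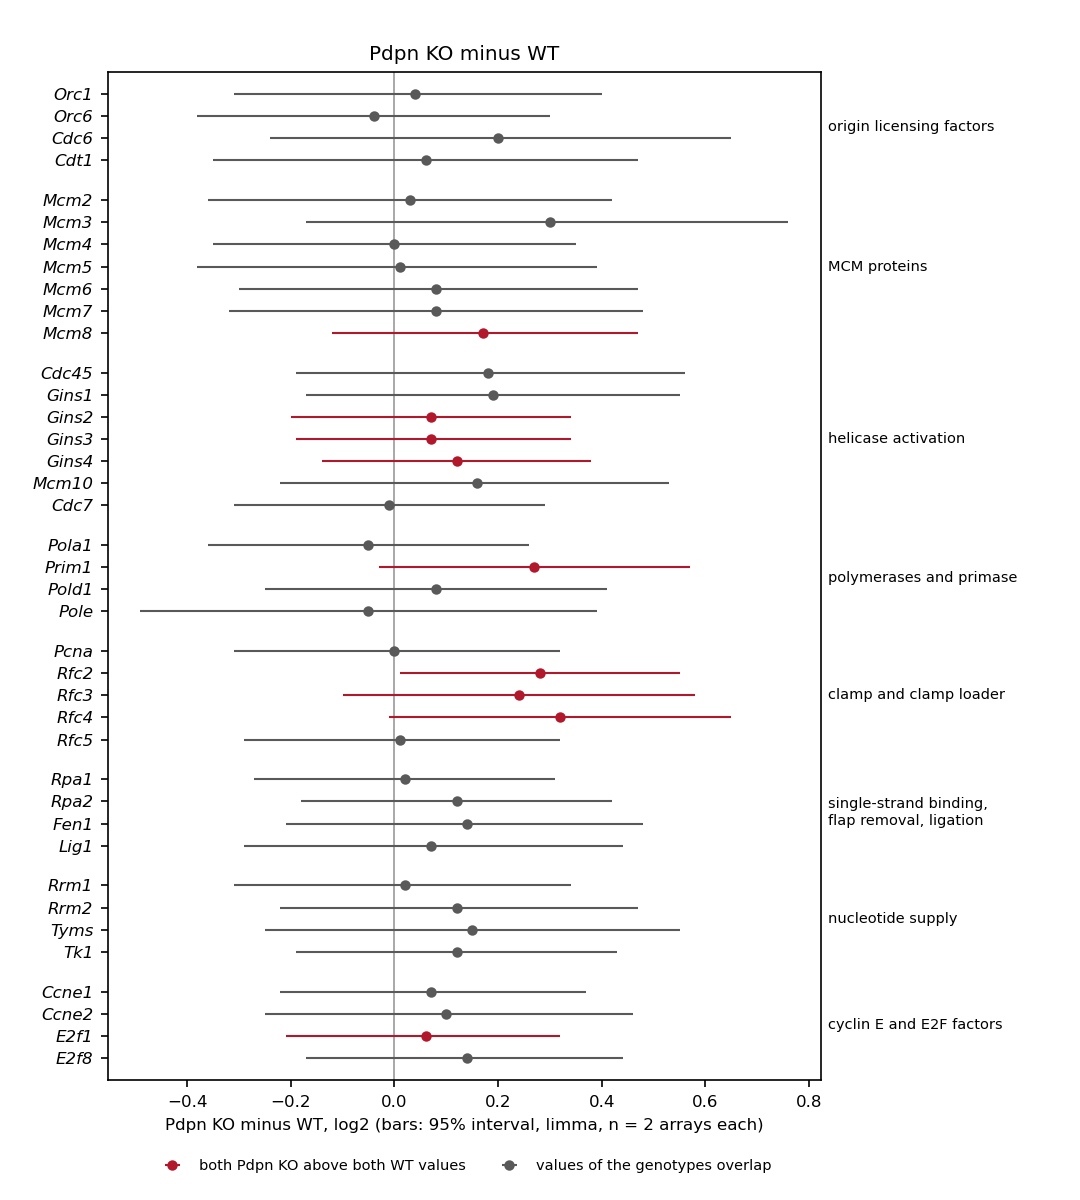
Difference between the genotypes for the 39 genes, ordered by role. Points are the log2 difference, Pdpn KO minus WT, and bars its 95% interval from limma with 2 arrays per genotype; red marks the 9 genes whose Pdpn KO values both lie above both WT values. The points lie between -0.05 and 0.32, and the interval of Rfc2, from 0.01 to 0.55, is the one that leaves out 0.

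The larger contrast lay between the knockout arrays. Of the 39 genes, 36 read higher in Pdpn KO replicate 2 than in Pdpn KO replicate 1, as 55% of all genes did, and 33 had their highest value of the 4 arrays there (26.2% of all genes). The median difference, Pdpn KO replicate 2 minus replicate 1, was 0.23 on the log2 scale, against 0.03 over all genes and -0.07 over the brighter 50% of genes, to which 36 of the 39 belong. A 1.2-fold or larger excess in replicate 2 was seen for 16 members (11% of all genes) and a deficit of that size for 0 (11.8%). That fold was chosen after the values were seen, and the gene list with earlier results of these data known. The exceptions to the direction were Gins3 and Gins4, each at -0.01, and Pole at -0.12. With a single array a side, no test of this contrast can be made.

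The WT arrays did not show it. WT replicate 2 read below WT replicate 1 for 30 of the 39 genes (46.0% of all genes), 4 of them by 1.2-fold or more (9.23%), with a median difference of -0.07, which is also the median of the brighter 50% of genes. After quantile normalization the members' median in WT was 0.02. For each of the 39 genes the signed difference, replicate 2 minus replicate 1, was higher in Pdpn KO than in WT. The same held for 47.1% of all genes. In size the gap was not always wider in Pdpn KO: Pole had -0.12 in Pdpn KO and -0.52 in WT, and Gins1 0.18 and -0.32. Set against the mean of the WT arrays, the median member stood at -0.04 in Pdpn KO replicate 1 and at 0.22 in Pdpn KO replicate 2. The array with the female pattern lay above both WT values for 35 members (33.9% of all genes), and Pdpn KO replicate 1 below both for 16 (31.5%). In 15 members Pdpn KO replicate 1 lay below both WT values while Pdpn KO replicate 2 lay above both (9.55% of all genes), on either side of WT.

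**Figure D2:**
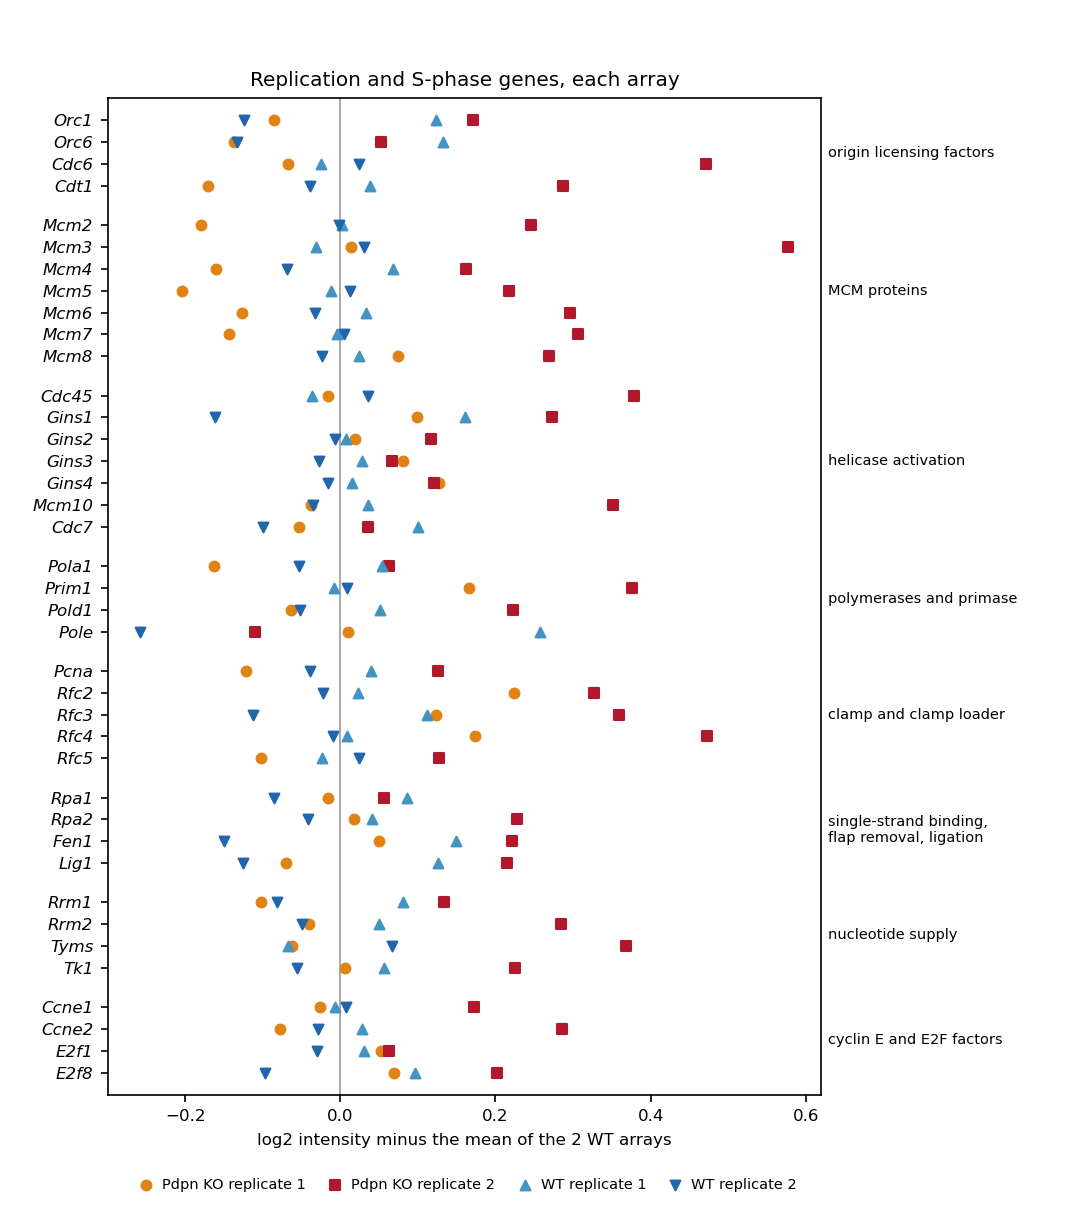
Level of each of the 39 genes in each array, as log2 intensity minus the mean of the 2 WT arrays; rows are genes ordered by role, and each symbol is 1 array. Red squares, Pdpn KO replicate 2, are the rightmost symbol in 33 rows, while orange circles, Pdpn KO replicate 1, lie left of both WT symbols in 16.

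Among the origin licensing factors, Cdc6 and Cdt1 differed more between the knockout arrays than between the WT arrays. Cdc6, the ATPase that brings the MCM ring to the origin, read 336 and 488 in Pdpn KO replicates 1 and 2, against 346 and 358 in WT replicates 1 and 2. Pdpn KO replicate 2 stood apart at 1.45-fold the level of replicate 1, a difference exceeded by 0.992% of all genes, and the other Pdpn KO array lay just under WT. The genotype difference was 0.20 ± 0.19 (SE, limma adjusted p = 1.00), with an interval from -0.24 to 0.65. Cdt1, the partner of Cdc6 in loading, read 1082 and 1486 in Pdpn KO, against 1251 and 1186 in WT, again with the knockout arrays on either side of WT. Orc1, the largest subunit of the origin recognition complex, read 340 and 406 in Pdpn KO and 393 and 331 in WT, so that its spread was alike in both genotypes. Orc6, another subunit of that complex, was the 1 licensing factor highest outside Pdpn KO replicate 2, at 1582 and 1804 in Pdpn KO and 1907 and 1587 in WT.

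The 6 subunits of the replicative helicase differed in one direction between the knockout arrays. Mcm2 to Mcm7 read 1.25- to 1.48-fold higher in Pdpn KO replicate 2 than in replicate 1, with a median log2 difference of 0.42, whereas WT replicate 2 minus WT replicate 1 lay between -0.14 and 0.06 with a median of 0.00. Mcm2 had 1622 and 2178 in Pdpn KO replicates 1 and 2, against 1840 and 1835 in WT replicates 1 and 2. Mcm5 had 1814 and 2429 in Pdpn KO, against 2072 and 2108 in WT. Mcm7 had 1815 and 2478 in Pdpn KO, against 1998 and 2011 in WT. In these 3 genes the WT arrays agreed within 1.02-fold and the knockout arrays lay on either side of them. Mcm4 (1593 and 1992 in Pdpn KO, 1866 and 1698 in WT) and Mcm6 (1103 and 1478 in Pdpn KO, 1232 and 1177 in WT) had the same order of arrays at the ends. Mcm3 differed from the other five, in that Pdpn KO replicate 1 lay between the WT values: it read 771 and 1139 in Pdpn KO, against 747 and 780 in WT. Its genotype difference was 0.30 ± 0.19 (SE, limma adjusted p = 1.00), with an interval from -0.17 to 0.76, and was 0.01 without Pdpn KO replicate 2. Mcm8, a related helicase of recombination and repair that is not part of the ring, read 290 and 332 in Pdpn KO and 280 and 271 in WT, and its excess in Pdpn KO replicate 2 over replicate 1 was 1.15-fold.

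The promoters of these genes were searched for words of the kind bound by E2F factors. The genes were chosen by name, with earlier results of these data known. The share of promoters with such words is counted from sequence and uses no array value. The words began with a pair of thymines: TTCCCGC, its variant TTCGCGC, then the word TTGCCGC and finally TTGGCGC, each on either strand, with overlapping matches counted. The windows were the 300 bases from 250 before to 50 after each start site in RefSeq, on the build GRCm38.p6, and 32 of the 39 genes had at least 1 window there, 37 windows in all. At least 1 word was found in 64.9% of those windows, against 9.57% of all 32851 windows in the table, and 2 or more words in 24.3%, against 1.18%. The CCAAT box, the word CCAAT on either strand, was in 56.8% of the members' windows and 37.4% of all, and TTTGAA, the CHR element of genes transcribed later in the cycle, in 18.9% and 17.9%. The windows of the 4 genes with the most E2F-type words are printed here, with ties settled by symbol order. Of these, 3 belong to subunits of the helicase ring. Capitals mark the E2F-type words.
Mcm6, chr1:128359656-128359955, minus strand: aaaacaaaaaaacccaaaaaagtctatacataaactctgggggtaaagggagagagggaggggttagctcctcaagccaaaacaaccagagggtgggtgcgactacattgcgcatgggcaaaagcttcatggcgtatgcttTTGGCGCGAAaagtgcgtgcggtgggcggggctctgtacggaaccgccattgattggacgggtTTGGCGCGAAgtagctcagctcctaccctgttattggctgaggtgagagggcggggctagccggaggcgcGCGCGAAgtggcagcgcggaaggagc
Mcm3, chr1:20820263-20820562, minus strand: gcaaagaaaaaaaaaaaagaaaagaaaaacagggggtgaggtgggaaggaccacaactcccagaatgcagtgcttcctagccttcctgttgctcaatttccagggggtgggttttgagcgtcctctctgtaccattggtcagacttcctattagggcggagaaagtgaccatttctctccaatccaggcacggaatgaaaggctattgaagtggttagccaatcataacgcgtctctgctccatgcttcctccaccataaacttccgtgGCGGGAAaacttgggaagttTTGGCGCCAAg
Mcm5, chr8:75109259-75109558, plus strand: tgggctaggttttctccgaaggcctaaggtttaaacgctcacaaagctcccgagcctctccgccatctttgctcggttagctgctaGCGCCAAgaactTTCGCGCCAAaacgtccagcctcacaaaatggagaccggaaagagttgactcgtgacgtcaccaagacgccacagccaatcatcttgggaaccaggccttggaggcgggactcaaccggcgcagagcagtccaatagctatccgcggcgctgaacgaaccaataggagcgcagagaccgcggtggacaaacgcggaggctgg
Pola1, chrX:93632106-93632405, minus strand: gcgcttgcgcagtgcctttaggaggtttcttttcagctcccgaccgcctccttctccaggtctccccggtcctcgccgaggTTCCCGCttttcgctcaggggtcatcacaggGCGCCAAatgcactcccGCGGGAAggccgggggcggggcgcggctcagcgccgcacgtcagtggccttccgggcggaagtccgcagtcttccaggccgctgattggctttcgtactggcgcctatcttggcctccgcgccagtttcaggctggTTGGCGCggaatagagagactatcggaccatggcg

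The Mcm6 window held 5 words and that of Pola1 4, while those of Mcm3 and Mcm5 held 3 each, in part as overlapping words of opposite strands. That of Mcm7, not printed, also held 3. The median difference, Pdpn KO replicate 2 minus replicate 1, was 0.26 over the 21 members with a word and 0.23 over the 11 with none. Mcm2, Tyms, Mcm10 and Cdc45, with no word in their windows, had differences of 0.39 to 0.43. A match of letters is a description and not a binding site, and the windows of all genes were not matched to those of the members for base composition.

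Genes that activate the loaded helicase split by complex. Cdc45, the factor that joins the ring with GINS, read 576 and 757 in Pdpn KO replicates 1 and 2, against 568 and 597 in WT replicates 1 and 2, so that Pdpn KO replicate 2 alone stood high, at 1.31-fold replicate 1. Its genotype difference was 0.18 ± 0.16 (SE, limma adjusted p = 1.00). Mcm10, which helps to start unwinding, had the same ratio of 1.31 between the knockout arrays, at 517 and 677 in Pdpn KO and 544 and 518 in WT. The 4 GINS subunits did not share this excess: their differences between the knockout arrays ran from -0.01 to 0.18, with a median of 0.05. Gins4 read 1678 and 1671 in Pdpn KO, against 1553 and 1520 in WT, and Gins3 524 and 519 in Pdpn KO, against 505 and 486 in WT. In both, the knockout arrays agreed within 1% and lay above WT by 0.12 and 0.07 on the log2 scale. Gins2 read 1074 and 1149 in Pdpn KO and 1065 and 1055 in WT. Gins1 had the smallest p of the role group, at 225 and 254 in Pdpn KO and 235 and 188 in WT (0.19 ± 0.15, SE, limma adjusted p = 1.00), and its values overlapped between the genotypes. Cdc7, the kinase that triggers origins, read 251 and 267 in Pdpn KO and 279 and 243 in WT, with no separation of any array.

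Polymerase and primase genes were less uniform. Prim1, the catalytic primase subunit, read 580 and 671 in Pdpn KO replicates 1 and 2, against 514 and 520 in WT replicates 1 and 2. Both Pdpn KO values lay above WT, by 0.27 ± 0.12 (SE, limma adjusted p = 1.00, unadjusted p = 0.0673), with an interval from -0.03 to 0.57. Pola1, the catalytic subunit of the polymerase that extends the primer and the only X-linked member, read 431 and 504 in Pdpn KO and 501 and 465 in WT, so the array with the female pattern did not exceed WT replicate 1 by more than 1%. Pold1, the catalytic subunit of the lagging-strand polymerase, read 686 and 837 in Pdpn KO and 743 and 692 in WT (0.08 ± 0.14, SE, limma adjusted p = 1.00). Pole, its leading-strand counterpart, had an order unlike most members: it read 1035 and 953 in Pdpn KO and 1229 and 860 in WT, lower in replicate 2 of both genotypes.

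The clamp and its loader had the highest median genotype difference of the role groups, 0.24, although no member passed the threshold. Rfc4, a loader subunit, read 1664 and 2047 in Pdpn KO replicates 1 and 2, against 1484 and 1466 in WT replicates 1 and 2. Rfc2, another subunit, read 715 and 768 in Pdpn KO, against 622 and 603 in WT. For both genes the knockout values lay above WT with a gap wider than the gap between the WT arrays. For Rfc4 it was narrower than the gap between the knockout arrays, which differed by 1.23-fold (1.07-fold for Rfc2). The log2 difference was 0.32 ± 0.14 for Rfc4 (SE, limma adjusted p = 1.00, unadjusted p = 0.0529) and 0.28 ± 0.11 for Rfc2 (SE, limma adjusted p = 1.00, unadjusted p = 0.0464). Without Pdpn KO replicate 2 the differences were 0.17 and 0.22. Rfc3 read 811 and 955 in Pdpn KO and 805 and 689 in WT, separated by little from WT replicate 1. Rfc5 read 2612 and 3064 in Pdpn KO and 2758 and 2852 in WT, with the knockout arrays on either side. Pcna, the clamp itself, behaved as Rfc5 did, at 4976 and 5907 in Pdpn KO, against 5565 and 5270 in WT. Its other probe set gave 3901 and 4719 in Pdpn KO, against 4423 and 4158 in WT, and thus the same order of arrays.

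Genes that protect single strands and finish the new strand differed little. Rpa2, a subunit of the single-strand binding protein, read 675 and 781 in Pdpn KO replicates 1 and 2, against 686 and 648 in WT replicates 1 and 2 (0.12 ± 0.12, SE, limma adjusted p = 1.00). Lig1, the ligase that joins Okazaki fragments, read 695 and 847 in Pdpn KO and 796 and 669 in WT (0.07 ± 0.15, SE, limma adjusted p = 1.00). In both genes Pdpn KO replicate 2 was highest, and for Lig1 the WT arrays were nearly as far apart as the knockout arrays. Rpa1, the large subunit of that binding protein, was highest in WT replicate 1, at 1584 and 1665 in Pdpn KO and 1700 and 1509 in WT. Fen1, the nuclease that trims flaps, read 669 and 754 in Pdpn KO and 717 and 583 in WT.

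All 4 genes of nucleotide supply had their highest value in Pdpn KO replicate 2. Tyms, thymidylate synthase, read 1223 and 1649 in Pdpn KO replicates 1 and 2, against 1219 and 1338 in WT replicates 1 and 2 (0.15 ± 0.17, SE, limma adjusted p = 1.00). The knockout arrays differed by 1.35-fold and the WT arrays by 1.10-fold in the same direction. Rrm2, the regulated subunit of ribonucleotide reductase, read 4353 and 5454 in Pdpn KO and 4634 and 4325 in WT. Its partner subunit Rrm1 had 4533 and 5337 in Pdpn KO and 5146 and 4599 in WT. Tk1, thymidine kinase, had 1173 and 1365 in Pdpn KO and 1214 and 1123 in WT, and its other probe set the same 1.16-fold order, at 985 and 1145 in Pdpn KO and 1005 and 874 in WT. Among these genes only Tyms was higher in replicate 2 of both genotypes.

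The cyclin E and E2F factor genes differed little between the genotypes. Ccne2, a cyclin E, read 1130 and 1453 in Pdpn KO replicates 1 and 2, against 1216 and 1169 in WT replicates 1 and 2 (0.10 ± 0.15, SE, limma adjusted p = 1.00), with the knockout arrays on either side of WT. Ccne1, the other cyclin E, had the same arrays at the ends with a smaller gap, at 2858 and 3278 in Pdpn KO and 2895 and 2925 in WT. E2f8, a repressive E2F factor that is itself an E2F target, read 976 and 1070 in Pdpn KO and 995 and 870 in WT (0.14 ± 0.13, SE, limma adjusted p = 1.00). E2f1, an activating E2F factor, was steady, at 1385 and 1395 in Pdpn KO and 1364 and 1308 in WT, and did not share the excess of Pdpn KO replicate 2.

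**Figure D3:**
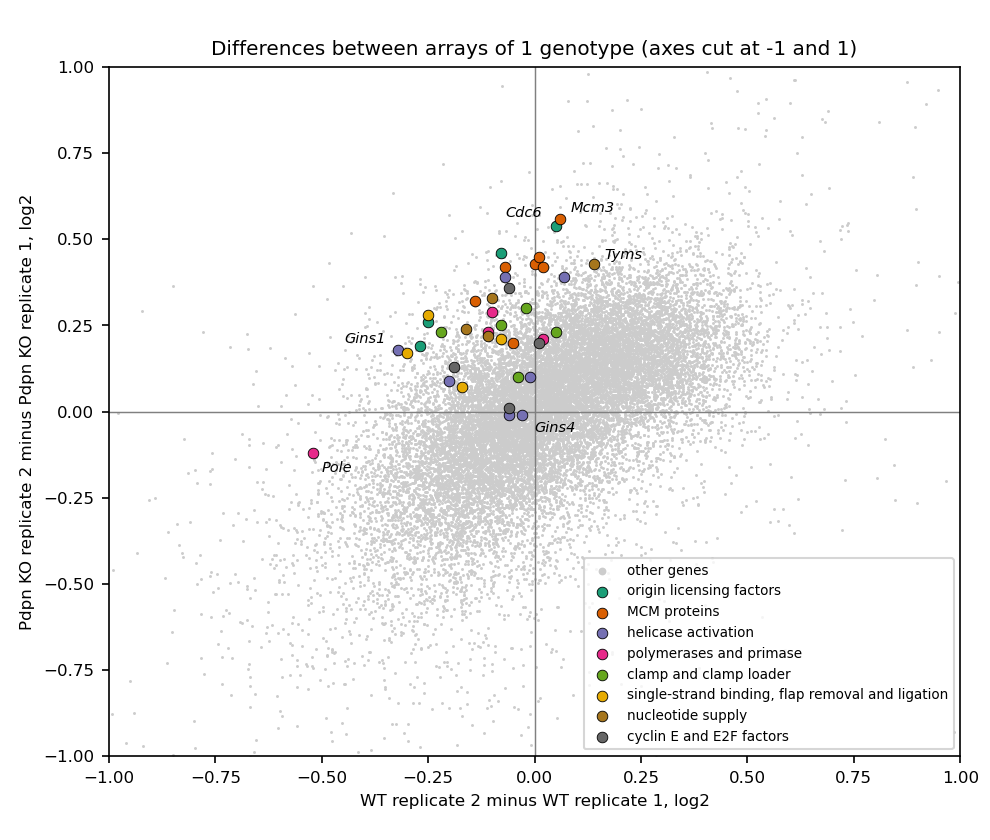
Difference between the arrays of each genotype, replicate 2 minus replicate 1 on the log2 scale, with Pdpn KO on the vertical and WT on the horizontal axis; coloured points are the 39 genes by role and grey points other genes, and values beyond -1 or 1 are not drawn. Each of the 39 has a higher value on the vertical than on the horizontal axis, some near 0 on both, such as Gins4 at -0.01 in Pdpn KO and -0.03 in WT, with Mcm3 at 0.56 in Pdpn KO and 0.06 in WT, and Pole at -0.12 and -0.52.

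Most other genes of DNA replication also read highest in Pdpn KO replicate 2. Of 60 further replication and S-phase genes listed, such as the remaining polymerase subunits, fork protection factors and histone chaperones, 56 were measured. In limma 0 passed the threshold, with 1 higher (1.5% of all genes) and 0 lower (0.511%) at an unadjusted p under 0.05. Their median genotype difference was 0.07, and 13 had both Pdpn KO values above WT (14.6% of all genes and 21.8% of the brighter 50%), 0 below (9.74% and 6.67%). The smallest p belonged to Pold4, a small subunit of polymerase delta, which read 868 and 865 in Pdpn KO replicates 1 and 2, against 683 and 742 in WT replicates 1 and 2 (0.28 ± 0.11, SE, limma adjusted p = 1.00, unadjusted p = 0.0436). Its knockout arrays agreed, unlike those of Dtl, a substrate receptor that marks Cdt1 for destruction, at 956 and 1169 in Pdpn KO and 907 and 841 in WT (0.28 ± 0.14, SE, limma adjusted p = 1.00). Between the knockout arrays, 48 of the 56 were higher in replicate 2 (55% of all genes), with a median of 0.17. Of the 4 arrays, 39 were highest there (26.2% of all genes). In WT the median difference between replicates was -0.10.

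Histone genes, many of which are transcribed in S phase for packaging new DNA, showed a wider gap. Of 30 genes picked by symbol, 26 were higher in Pdpn KO replicate 2 than in replicate 1 (55% of all genes). The median was 0.40, with quartiles of 0.12 and 0.68 and a range from -0.57 to 1.06. By 1.2-fold or more, 18 were higher (11% of all genes). In WT the median difference between replicates was 0.09, and 22 of the 30 were higher in replicate 2 (54% of all genes), 4 of them by 1.2-fold or more (14%). Between the genotypes the median was 0.11, 0 passed in limma, and 0 had an unadjusted p under 0.05 in either direction (1.5% of all genes higher and 0.511% lower). Near-identical copies can share probes, and the symbols also take in a few linker histones of germ cells, so single histone genes are not given.

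Lists of genes of the neighbouring stages had smaller median differences between the knockout arrays, though single genes of some lists differed widely. Among 49 mitosis and spindle genes, such as cyclins and kinases of chromosome segregation, the median of Pdpn KO replicate 2 minus replicate 1 was 0.08. An excess of 1.2-fold or more was seen for 3 (11% of all genes and 5.99% of the brighter 50%), beside 16 of the 39 replication genes. The order of arrays was nonetheless often alike: 35 of the 49 were higher in Pdpn KO replicate 2 than in replicate 1 (55% of all genes). Of the 4 arrays, 30 were highest there (26.2%), and 36 lay above both WT values there (33.9%). The WT median was -0.13. For 44 of the 49 the signed difference, replicate 2 minus replicate 1, was higher in Pdpn KO than in WT (47.1% of all genes). In that list 22 genes had both Pdpn KO values above WT (14.6% of all genes and 21.8% of the brighter 50%) and 0 below (9.74% and 6.67%). The median genotype difference was 0.11, with 0 past the threshold in limma. At an unadjusted p under 0.05, 1 was higher (1.5% of all genes) and 0 lower (0.511%). For 11 measured G1 cyclins, CDKs and inhibitors the median was -0.05 between the knockout arrays and 0.00 between the genotypes. The E2F family, with pocket proteins and partners, had 0.03 and 0.03 over 14 genes. Its differences between the knockout arrays ran from -0.69 to 0.62, wider than the -0.12 to 0.56 of the 39. Immediate early and serum response genes, whose level follows fresh growth factor, had 0.08 between the knockout arrays and 0.09 between the genotypes over 16 genes. Their differences between the knockout arrays ran from -0.55 to 0.96.

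**Figure D4:**
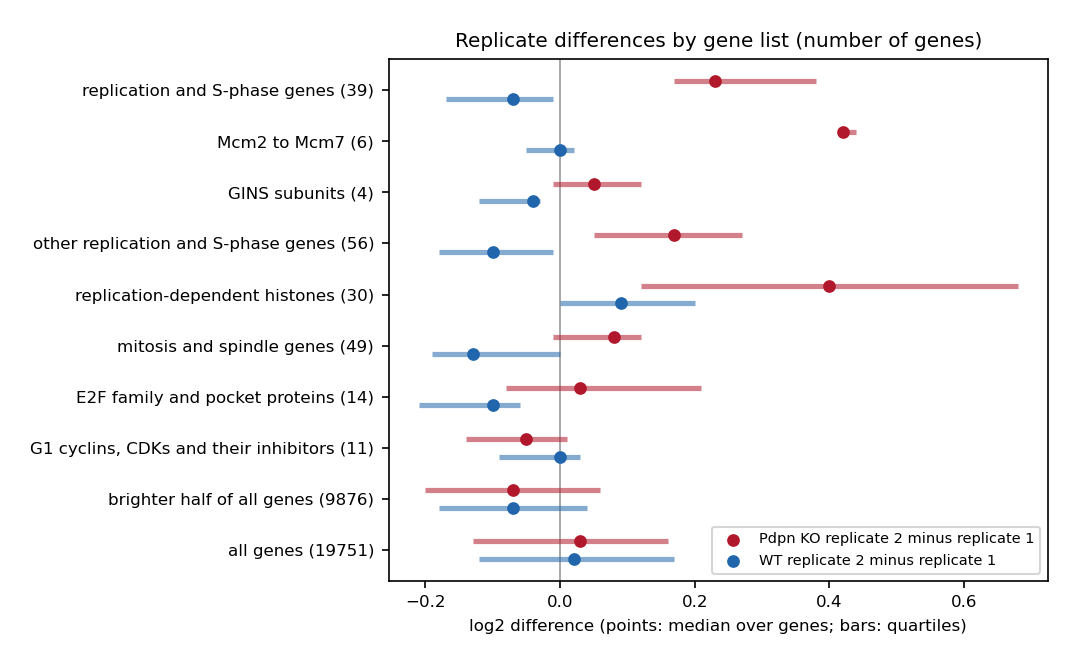
Median (points) and quartiles (bars) over genes of replicate 2 minus replicate 1 on the log2 scale, in Pdpn KO (red) and in WT (blue), for each gene list with its number of genes in brackets. The 39 replication genes have medians of 0.23 in Pdpn KO and -0.07 in WT, Mcm2 to Mcm7 0.42 and 0.00, and all genes 0.03 and 0.02.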

How the data were processed

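The authors deposited 1 intensity per probe set and array. Per the submitters' processing notes RMA was used, with no version or settings given in the sources used here. The series value table as deposited held 24679 probe sets, and a second deposited table differed from it by at most 0.005. RMA leaves no detection call, compresses low values and scales the arrays to each other. The array medians lay between 283.5 and 290.3, but lower quartiles ran from 103.4 to 114.3 and upper quartiles from 966.5 to 1059.2, with replicate 2 narrower than replicate 1 in both genotypes. Precision is limited by the number of arrays.

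The deposited intensities were turned to log2 with neither a pseudocount nor a filter. The platform annotation gave 21354 probe sets a single symbol, and the brightest probe set per symbol left 19751 genes. Pdpn KO was compared with WT using limma 3.58.1 in R 4.3.3 (a 2-group model with eBayes and two-sided p-values, adjusted by Benjamini-Hochberg across the 19751 genes, with 0.05 as the threshold), which was checked on simulated data. With 4 arrays, no exact permutation test can pass 0.05. Differences between single arrays are descriptions. Alternatives were the other table, other scalings, filters, priors and probe set rules, a replicate block and leaving out each array.

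The members, lists, tests and the naming rule were chosen with earlier results of these data known. Named with full statistics were, in each role, the gene with the smallest p and that with the largest difference between the Pdpn KO arrays, the 2 other replication genes with the smallest p, and Pdpn. Other members, and the sex-linked genes that check the labels, are given by their intensities. Figures were drawn with matplotlib 3.10.9.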

Additional observations from a re-analysis of the deposited data

How the results depend on the processing

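Under each alternative run, 0 of the 39 genes passed an adjusted p of 0.05, the smallest being 0.306 without Pdpn KO replicate 1 and 0.447 with the replicate number as a block. Over all genes, 2 passed in the fit as reported, 1 without the dimmer 50% of genes, 9 with a robust, intensity-dependent prior, 0 with a test on each gene alone, 34 with the replicate block, and 5 to 100 with 1 array left out (5 without WT replicate 1, 50 without Pdpn KO replicate 2, 53 without WT replicate 2 and 100 when Pdpn KO replicate 1 was the array dropped). For the 39, the median difference ran from -0.04 without Pdpn KO replicate 2 to 0.22 without Pdpn KO replicate 1. The count with both Pdpn KO values above WT was 9, 4 with median centring, 5 after quantile normalization, and 9 to 35 with 1 array left out, and the count below WT 0 to 16, since fewer values must then separate. Genes higher by 1.2-fold or more in Pdpn KO replicate 2 than in replicate 1 numbered 16, and 27 after quantile normalization, when 8.37% of all genes were, and the members' median difference between the WT arrays was then 0.02, against -0.07. This count and the 33 genes highest in that array were recomputed under alternatives chosen after seeing the data. With 1 array left out, the log2 difference of Cdc6 ran from -0.06 to 0.47, Cdc45 from -0.02 to 0.38, Pold1 from -0.06 to 0.22, Lig1 from -0.07 to 0.21, Tyms from -0.06 to 0.37 and Ccne2 from -0.08 to 0.29. Each lowest value came without Pdpn KO replicate 2. Over all genes, the difference between replicates in Pdpn KO correlated with that in WT (r = 0.58, across genes, which are not independent replicates). What a shared replicate number stands for is not in the labels, and the block added 0 calls among the 39.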
